A study of Arabidopsis thaliana with 10 samples.

Results

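The comparison described here set the 2 RNA-seq libraries of sgs3-12 mutants against the 6 libraries of unstressed Col-0 plants, pooled as 1 group. These 8 libraries are 8 of the 10 in the series and were chosen by their labels alone. All were made from polyA RNA of 4-week-old Arabidopsis thaliana, from the fifth true leaves of plants kept at 22 °C in long days (16 h light, 8 h dark). The pool had 3 Col-0 groups of 2 libraries each: wild type, unstressed progeny of plants grown at 30 °C (generation 2), and the unstressed progeny of generation 2 (generation 3). The pool therefore held plants whose parents or grandparents had been grown at 30 °C, and the sgs3-12 plants are not described as having such ancestors. The other 2 libraries, of Col-0 plants themselves grown at 30 °C, were left out of the fit and are given only beside single results. The labels give neither the lesion of sgs3-12 nor the number of plants per library, and separate plants or pools are not stated for the libraries within a group. The spread within a group may therefore be technical alone. The p-values rest on that spread and, in the pool, on differences among the 3 Col-0 groups, whose 6 libraries were counted as 6 replicates.

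SGS3 is an RNA-binding protein that protects cleaved transcripts and hands them to the RNA-dependent RNA polymerase RDR6, which copies them into double-stranded RNA. Dicer enzymes, chiefly DCL4, cut that RNA into phased small RNAs. At the TAS loci the products are trans-acting small RNAs (tasiRNAs), which guide cleavage of other transcripts: those of TAS3 target the auxin response factors ARF2, ARF3 and ARF4 and help to pattern the leaf and to time its change from juvenile to adult form, those of TAS1 target the HTT genes known for heat tolerance, and those of TAS1 and TAS2 target genes for pentatricopeptide repeat (PPR) proteins, which process RNA in organelles.

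The sites through which the leading targets pair with TAS transcripts are shown first, since the members of these families differed in how far their transcripts lay above Col-0. They are the best 21-base pairings between each RefSeq transcript and a TAS transcript (RefSeq TAIR10.1, Watson-Crick pairs only, every window on either TAS strand), written 5′ to 3′ as DNA, with paired bases in capitals. Small RNAs were not sequenced here, so each is a match of sequence and not a measured small RNA. The ARF4 site, on the minus strand in coding sequence, and the stretch of TAS3 that it pairs with are:
ARF4 site, chr5:24309507-24309527: GGGTCTTgCAAGGTCAAGAAA
TAS3 stretch, chr3:5862205-5862225: TTTCTTGACCTTGtAAGACCC
ARF2 site, chr5:24913261-24913281: aGGGTCTTgCAAGGTCAAGAA
ARF3 holds the same 21 bases as ARF4 at chr2:14325941-14325961, again in coding sequence. ARF3 and ARF4 pair at 20 of 21 bases, and no other of the 37885 genes searched does so with this same stretch (2 genes, 0.00528%). ARF2 pairs at 19, with the TAS3 stretch at chr3:5862206-5862226, which is not shown, and its capitals refer to that stretch. Of the HTT genes, HTT2 is shown with a stretch of TAS1A. HTT1 and HTT4 pair best with a stretch of TAS1C at chr2:16537835-16537855, which is not shown, and their capitals refer to it:
HTT2 site, chr5:5973754-5973774: tcACGCTATGTTGGACTTAGG
TAS1A stretch, chr2:11722048-11722068: CCTAAGTCCAACATAGCGTtc
HTT1 site, chr4:14577243-14577263: AAcACGaTATGTTGGACTTAG
HTT4 site, chr4:14574923-14574943: AAcACaCTATGTTGGACTTAG
HTT2 and HTT3 carry an identical site outside the coding sequence, HTT1 and HTT4 carry theirs within it, and all 4 pair at 19 of 21 bases. HTT5 pairs at 17 at most. Of the PPR genes, AT1G12775 pairs at 20 bases with the strand complementary to TAS1C, a count that 3 genes (0.00792%) reach with the same stretch:
AT1G12775 site, chr1:4355208-4355228: aTTGCTAATACAGTTACTTAT
TAS1C complementary strand, chr2:16537689-16537709: ATAAGTAACTGTATTAGCAAc

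The libraries held 17674090 to 23145159 counts each, and 19451 of the 33602 genes in the table had enough counts to be tested. Levels are given as CPM, counts scaled to library size with TMM factors, which even out library composition. Log2 CPM of the 2 sgs3-12 libraries correlated across genes at r = 0.956, against 0.765 to 0.937 among the Col-0 libraries and 0.776 to 0.944 between the genotypes. Long genes were low in library 1 of both generations 2 and 3: relative to the mean of the 8 libraries, the slope of log2 CPM on gene length was −2.29 and −1.31 for each 10-fold, against −0.17 to 1.13 in the other 6. Mesophyll genes were abundant in every library, while the meristem genes STM, WUS and CLV3 and the root genes PIN2 and RHD6 had 0 counts in all 8. SCR, the 1 root marker tested, was not absent. It was at 48.8 and 50.5 CPM in sgs3-12, above its Col-0 range of 15.5 to 37.4.

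SGS3 itself (AT5G23570, chromosome 5, 7943124 to 7946050) was checked first. Its level was 9.16 and 7.98 CPM in sgs3-12, 24.1 and 34.5 in wild type, 8.44 and 8.15 in generation 2, and 13.5 and 15.2 in generation 3. Both mutant values were under those of wild type but overlapped those of generation 2, so the level of this transcript did not separate the mutant from the pool. The log2 fold change was −1.01 ± 0.59 (SE, n = 2 and 6, edgeR adjusted p = 0.649), and without the 2 wild-type libraries it was −0.40.

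Over all genes, 4 were higher in sgs3-12 (0.0206% of those tested) and 0 were lower (0%) at an edgeR adjusted p under 0.05. At an unadjusted p under 0.05 these numbers were 423 (2.17%) and 1068 (5.49%). With DESeq2 the calls were 38 higher (0.199%) and 195 lower (1.02%), and with limma 9 and 1. Both sgs3-12 libraries lay above all 6 Col-0 libraries for 1466 genes (7.54%) and below all 6 for 1614 (8.3%), and these 2 shares are the background for every count of genes outside the Col-0 range below. The 4 calls did not hold when the 3 Col-0 groups were kept as separate levels (0 called), without library 1 of sgs3-12 (0), without both libraries of generation 2 or of generation 3 (0 each), or without library 1 of both (0). Their direction was upward in all of these fits, but all 4 lay above every Col-0 library, so a change of sign was hardly possible.

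**Figure D1:**
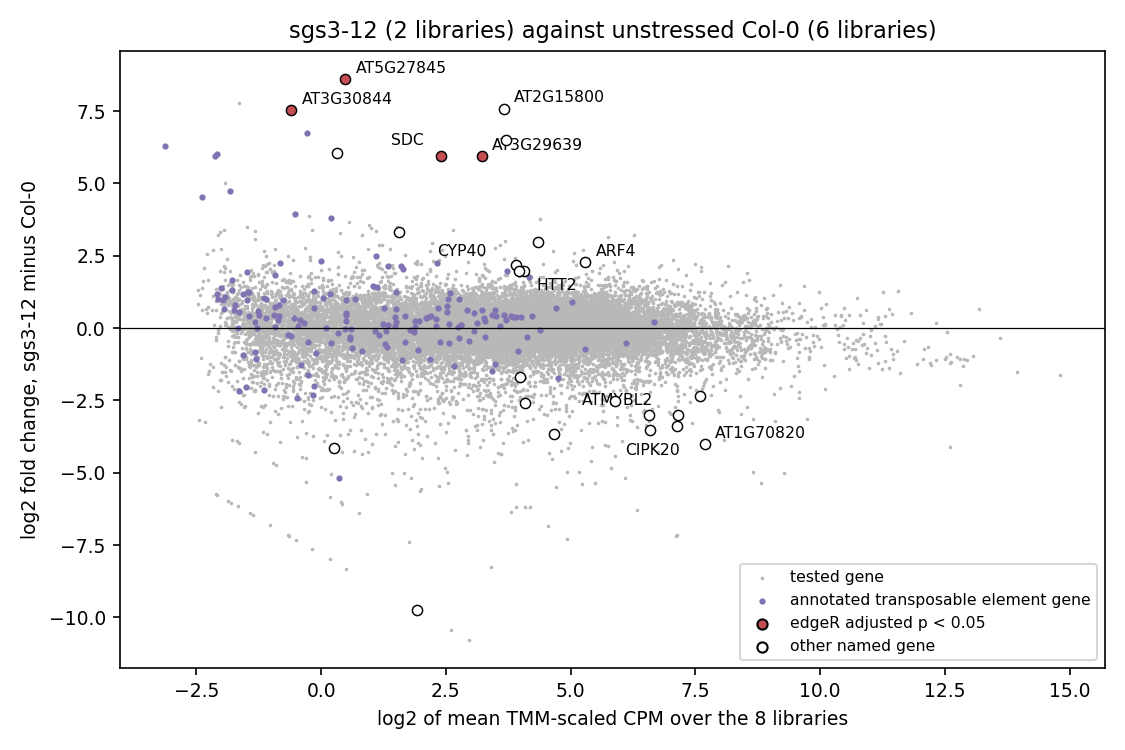
Log2 fold change of sgs3-12 over pooled Col-0 (y axis) against the log2 mean CPM over the 8 libraries (x axis) for each of the 19451 genes tested. Filled red circles are the 4 genes past an edgeR adjusted p of 0.05, all of them higher in sgs3-12, open circles are other named genes, and purple points are annotated transposable element genes. Points in a slanting line at the lower left are genes with 0 counts in sgs3-12, whose fitted values depend on the prior count.

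The gene with the smallest p was AT3G29639 (chromosome 3, 11478732 to 11479749), a short gene that the table describes only by its likeness to a protein with a SPOC domain. It was at 34.7 and 36.4 CPM in sgs3-12. In Col-0 its lowest, median and highest levels were 0.182, 0.588 and 1.06 CPM. The mutant libraries were thus close to each other and far outside the Col-0 range. The log2 fold change was 5.93 ± 0.48 (SE, n = 2 and 6, edgeR adjusted p = 0.0102). It was also the call that held in the most fits, 16 of 21.

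SDC (AT2G17690, chromosome 2, 7682383 to 7684083) rose as steeply. It encodes an F-box protein and is known as a gene that DNA methylation over tandem repeats ahead of its start keeps silent in leaves. Its level was 28.8 and 11.7 CPM in sgs3-12, and 0.127, 0.283 and 0.582 CPM (lowest, median, highest) in Col-0. Library 1 of sgs3-12 was more than 2 times library 2, and both were far above every Col-0 library. The log2 fold change was 5.96 ± 0.55 (SE, n = 2 and 6, edgeR adjusted p = 0.011). The call was also lost without library 1 of wild type (edgeR adjusted p = 0.0572) or without library 1 of generation 2 (0.0587).

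The repeats ahead of SDC are shown because they are what the gene is known for. In the 300 bases before the RefSeq start on the plus strand, bases recurred best at a spacing of 32, and 6 successive blocks of 32 matched their consensus at 24 or more positions. Capitals mark the bases that equal the consensus:
copy 1, chr2:7681896-7681927: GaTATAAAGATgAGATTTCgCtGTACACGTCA
copy 2, chr2:7681928-7681959: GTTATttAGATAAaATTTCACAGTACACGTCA
copy 3, chr2:7681960-7681991: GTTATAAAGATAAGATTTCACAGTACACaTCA
copy 4, chr2:7681992-7682023: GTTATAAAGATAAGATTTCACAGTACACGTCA
copy 5, chr2:7682024-7682055: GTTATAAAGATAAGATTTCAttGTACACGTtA
copy 6, chr2:7682056-7682087: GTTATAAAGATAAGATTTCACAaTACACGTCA
Copy 4 equals the consensus throughout, and copy 1 differs most. Of 37883 genes, 20 (0.0528%) have a stretch of 64 bases in their 300 upstream bases in which at least 90% of bases recur 32 bases on. DNA methylation was not measured in these libraries.

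The other 2 calls were annotated transposable element genes. AT5G27845 (chromosome 5, 9868348 to 9871836) was at 7.36 and 3.77 CPM in sgs3-12. Among the Col-0 libraries it had 1 count in all, in library 2 of generation 2, against 274 counts in sgs3-12. The ratio of the pooled levels was 687, with a 95% counting interval of 122 to 27210 (edgeR adjusted p = 0.011). AT3G30844 (chromosome 3, 12602729 to 12606196) was at 2.81 and 2.44 CPM, with 127 counts against 1, a ratio of 318 (56.1 to 12670, edgeR adjusted p = 0.0241). This was the least stable call: it held in 5 of 20 fits, was lost whenever any 1 library was left out, and had an edgeR adjusted p of up to 0.365. These intervals are exact and cover counting error only.

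Transposable element genes were then looked at as a class, a choice made after these values were seen. The table marks 3900 genes in this way, and 170 passed the filter on low counts. A gene could pass it through the 2 sgs3-12 libraries alone, so elements high in the mutant were favoured and no share of the 170 is given. The whole class took 0.155% and 0.121% of the counts in the sgs3-12 libraries and 0.0531% to 0.130% in Col-0, so library 1 of sgs3-12 lay above the Col-0 range and library 2 within it.

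Besides those already given, 5 elements were among the 12 genes with the smallest p of those higher in sgs3-12. AT2G15800 (chromosome 2, 6880825 to 6882741) was at 69.2 and 30.1 CPM against at most 0.873 in Col-0, and its neighbour AT2G15810 (6882821 to 6886775) was at 68.3 and 32.2 against at most 1.76. The gene on their other side, CYP40 (AT2G15790, 6877774 to 6880898), encodes the cyclophilin SQUINT, known for its part in microRNA activity and in the timing of adult leaf traits. CYP40 was at 45.7 and 27.1 CPM against 4.23, 8.02 and 11.8 (lowest, median, highest) in Col-0, a log2 fold change of 2.20 ± 0.37 (SE, n = 2 and 6, edgeR adjusted p = 0.218, DESeq2 adjusted p = 0.00104). All 3 neighbours were thus high in both mutant libraries, and library 1 was the higher in each. CYP40 and AT2G15800 share 74 bases and AT2G15810 starts 79 bases on, so reads cannot be assigned between them with certainty.

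On chromosome 1, AT1G36630 (13840145 to 13847625) was at 5.07 and 4.57 CPM against at most 0.200 in Col-0. AT1G36680 (13871080 to 13872202) was at 11.3 and 6.74 against at most 1.35 (log2 fold change 3.32 ± 0.41, SE, n = 2 and 6, edgeR adjusted p = 0.0717). Between them lies AT1G36675, not marked as an element, at 6.20 and 6.47 CPM against 0.364 to 1.90. No Col-0 library reached the mutant level of any of the 3. AT4G04293 (chromosome 4, 2076832 to 2077361), which stands alone, was at 49.4 and 68.4 CPM against 3.50 to 11.6 in Col-0 (log2 fold change 2.99 ± 0.39, SE, n = 2 and 6, edgeR adjusted p = 0.101). The last of the 12 without a known small-RNA link, AT5G52070, encodes a protein with an Agenet domain and was at 34.9 and 35.6 CPM against 5.93 to 12.2 (1.97 ± 0.28, edgeR adjusted p = 0.118). In the 30 °C-grown libraries, 1 of the 12 genes, AT5G27845, also lay above all unstressed Col-0 libraries.

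**Figure D2:**
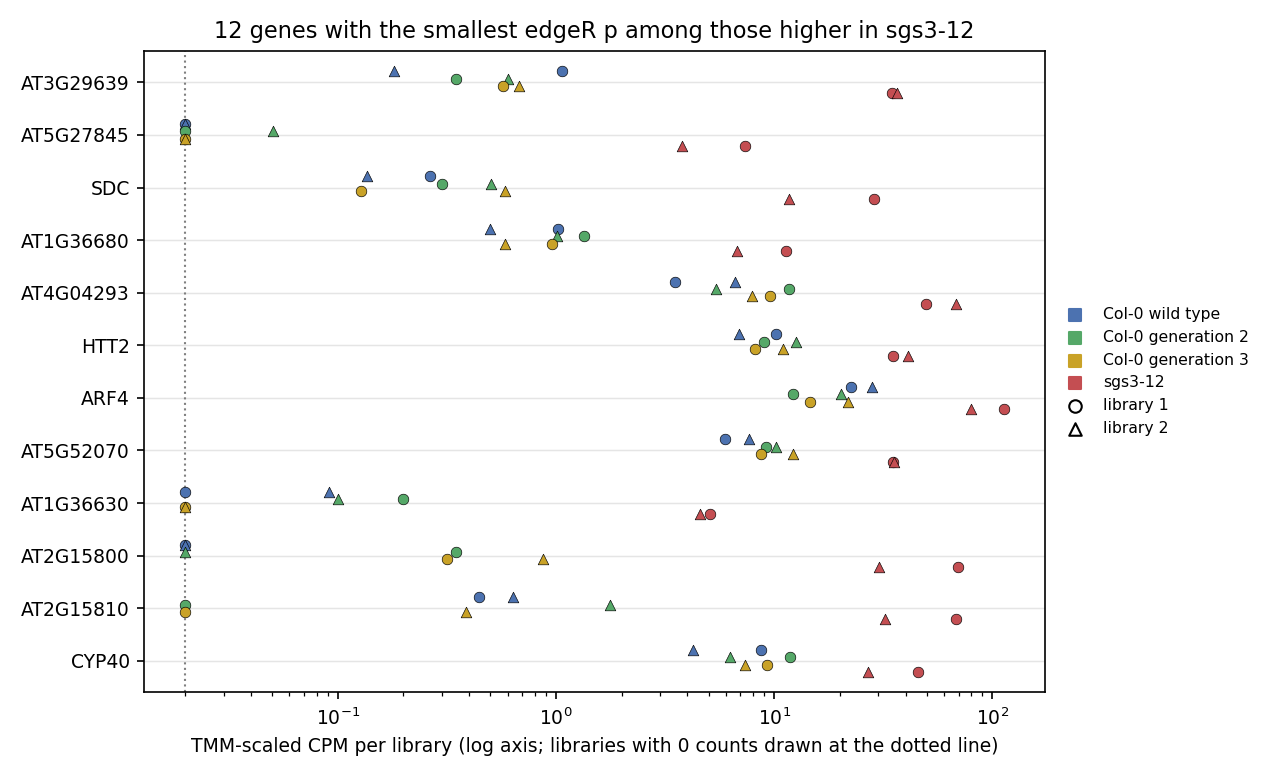
TMM-scaled CPM (log axis) in each of the 8 libraries for the 12 genes with the smallest edgeR p among those with a mean of at least 1 CPM and both sgs3-12 libraries above all 6 Col-0 libraries. Colours are groups, shapes are library numbers, and libraries with 0 counts sit on the dotted line. The red points stand apart at the right in every row, from 3.77 CPM for AT5G27845 in library 2 up to 113 CPM for ARF4 in library 1.

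The targets of TAS3 differed from each other. ARF4 (AT5G60450, chromosome 5, 24308322 to 24312698), a repressor in auxin signalling that marks the lower side of the leaf, was at 113 and 80.1 CPM in sgs3-12. Wild type had 22.5 and 28.0 CPM; the values were 12.2 and 20.3 in generation 2, and 14.6 and 21.7 in generation 3. Both mutant libraries lay above every Col-0 library by a wide margin, a log2 fold change of 2.28 ± 0.33 (SE, n = 2 and 6, DESeq2 adjusted p = 2.33e-06, edgeR adjusted p = 0.118). ARF3, which carries the same 21-base site and acts with ARF4, was at 35.7 and 24.96 CPM against 9.87, 19.2 and 28.5 (lowest, median, highest), and library 2 fell within the Col-0 range (0.68 ± 0.39, edgeR adjusted p = 0.649). ARF2, a repressor of growth and a timer of leaf ageing, was at 300.1 and 283 CPM against 48.7 to 374 and overlapped with Col-0. Its fold change was 0.36 ± 0.62 (edgeR adjusted p = 0.838), and −0.02 without library 1 of generations 2 and 3. Of these 3 genes, ARF4 was the 1 outside the Col-0 range (33.3%, against the 7.54% of all genes). Its direction was upward in all 21 fits, which its lack of overlap with Col-0 made close to certain.

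The HTT genes, plant-specific proteins of unknown biochemical role, all had a positive fold change (that of HTT5 turned negative in some of the other fits), and 4 of 5 lay above all Col-0 libraries. Of these 4, HTT1 and HTT4 were at most 0.573 and 0.146 CPM in Col-0. They could pass the filter on low counts through the 2 sgs3-12 libraries alone, which favours members high in the mutant. HTT2 (AT5G18040) was at 34.9 and 40.9 CPM in sgs3-12 against 6.87, 9.59 and 12.6 (lowest, median, highest) in Col-0, a log2 fold change of 1.98 ± 0.27 (SE, n = 2 and 6, DESeq2 adjusted p = 5.17e-07, edgeR adjusted p = 0.105). HTT1 (AT4G29770) was at 2.96 and 2.57 CPM against 0.0909, 0.221 and 0.573 (3.40 ± 0.62, DESeq2 adjusted p = 0.00147, edgeR adjusted p = 0.388). HTT4 (AT4G29760), next to HTT1 on chromosome 4, was at 0.545 and 0.931 CPM against at most 0.146 (3.22 ± 0.77, edgeR adjusted p = 0.647). HTT3, with the same site as HTT2, was nearer to the range of Col-0, at 1.44 and 2.13 CPM against 0.805 to 1.195 (0.79 ± 0.39, edgeR adjusted p = 0.648). HTT5, whose pairing was the weakest, had 0 counts in 4 Col-0 libraries and up to 2.27 CPM in the others, and the mutant values of 0.273 and 1.06 lay among them. The family shares sequence and the treatment of reads that match several members is unknown, so the values of single members are uncertain. In the 30 °C-grown libraries HTT2 was at 10.7 and 11.2 CPM, within the unstressed Col-0 range, while HTT1 was at 2.54 and 2.03 and HTT3 at 4.75 and 2.33, above it.

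Among PPR genes, AT1G12775 was at 9.86 and 9.05 CPM against 2.16, 3.72 and 4.34 (lowest, median, highest), a log2 fold change of 1.46 ± 0.32 (SE, n = 2 and 6, DESeq2 adjusted p = 0.018, edgeR adjusted p = 0.503). It was the 1 member of 25 tested that DESeq2 called, while 4 (16%) lay above and 0 below all Col-0 libraries. Those other 3, AT1G62910, AT1G62590 and RPF6, lay within 0.51 to 0.74 on the log2 scale. The list's median was 0.20, and −0.02 with an offset for gene length. AT1G12300 and AT1G12620, which pair with the TAS2 complementary strand at 20 bases, overlapped with Col-0 (0.35 ± 0.48 and 0.07 ± 0.29). Both pair at as many bases as AT1G12775, as do AT1G62590 and RPF6, which lay above the Col-0 range. RPF1, AT1G62860 and AT1G63630 pair at 21 bases and lay within that range. A link between pairing and level was not tested.

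The TAS precursor transcripts themselves differed little. TAS1A, TAS1B, TAS1C, TAS2 and TAS3 all overlapped with Col-0, with log2 fold changes from −0.34 to 0.41. TAS3 was at 16.6 and 11.1 CPM in sgs3-12, and its lowest Col-0 library was a wild-type one at 3.77. TAS3B, TAS3C and TAS4 had 0 counts in all 8 libraries. The TAS4 targets, MYB regulators of anthocyanin synthesis, could be tested for 1 member: MYB75 was at 0.390 and 3.28 CPM against 0.699 to 6.14 in Col-0 (−0.52 ± 1.06). The list of other small-RNA loci held auxin receptors, immune receptor genes and SDC, described above. Of 12 tested, 6 fold changes were positive and 6 negative. SDC was the 1 above the range (8.33%), so none of the receptor genes lay above it. The immune receptor genes AT1G15890 and AT5G43740 were the 2 below (16.7%).

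**Figure D3:**
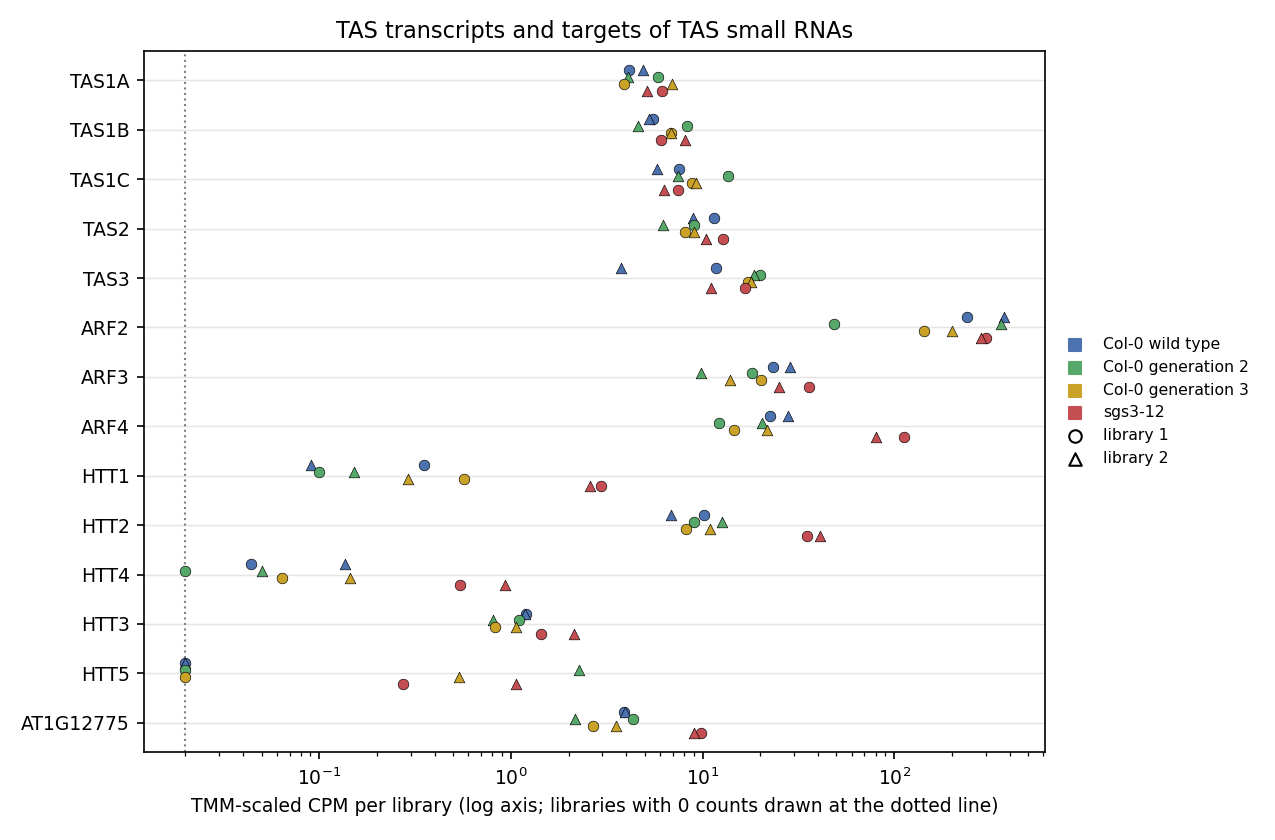
TMM-scaled CPM (log axis) per library for the 5 TAS transcripts tested, the 3 TAS3 targets, the 5 HTT genes and the PPR gene AT1G12775. Colours are groups, shapes are library numbers, and the dotted line marks 0 counts. Red sgs3-12 points clear the Col-0 points for ARF4, HTT1 to HTT4 and AT1G12775, and mix with them for the TAS transcripts, ARF2, ARF3 and HTT5.

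Genes of the tasiRNA and microRNA machinery were higher in part. Of 15 tested, 5 (33.3%) lay above and 1 (6.67%) below all Col-0 libraries, and the median was 0.53. DCL4, the Dicer of the tasiRNA pathway, was at 27.8 and 29.97 CPM against 3.10, 15.3 and 24.9 (lowest, median, highest), while its partner DRB4 was below, at 4.44 and 4.79 against 4.88 to 10.14. SDE5, an RNA-trafficking protein needed for the pathway, was at 21.1 and 20.2 CPM against 8.15 to 16.3 (0.99 ± 0.32, edgeR adjusted p = 0.647). DCL1, SE and HEN1, which make microRNAs, completed the 5. DCL1 and DCL4 are long genes, and the 2 libraries low in long genes had the lowest values for both. Without those 2 libraries the median of the machinery was 0.14, and with an offset for gene length 0.12. Genes of DNA methylation depended on the 2 libraries in part. Of these, 15 of 15 were positive and 3 (20%) above the range, with a median of 0.86. Without the 2 libraries the median was 0.39, with 14 positive. An offset for gene length gave 0.49, with 13 positive. CMT3, a DNA methyltransferase, was at 16.3 and 12.6 CPM against 3.56 to 11.2.

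Leaf polarity genes, which set the upper and lower sides of the leaf, were often outside the range: 5 of 11 (45.5%) above and 1 (9.09%) below. PHV, a transcription factor of the upper side, was at 46.8 and 33.3 CPM against 4.69, 13.2 and 20.6 in Col-0 (lowest, median, highest), a log2 fold change of 1.61 ± 0.45 (SE, n = 2 and 6, edgeR adjusted p = 0.647). AS1, which acts with the ARF genes in leaf patterning, was at 37.6 and 38.0 CPM against 13.3 to 28.5 (1.14 ± 0.32). YAB1, of the lower side, was at 18.4 and 13.4 CPM against 20.99 to 42.6 (−0.997 ± 0.36). PHB and REV, relatives of PHV, and KAN2, a lower-side gene, were also above, so genes of both sides were among the higher ones. The median was 0.22, and 0.05 with an offset for gene length, where 4 lay above and 1 below.

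Of the genes of vegetative phase change, 3 of 13 (23.1%) lay above and 1 below. Of their fold changes, 5 were positive and 8 negative, with a median of −0.14. SPL10 and SPL11, neighbouring genes on chromosome 1 that promote adult leaf traits, were at 25.2 and 18.6 CPM against 5.74 to 13.9, and at 23.1 and 21.02 against 4.14 to 17.1. Their log2 fold changes were 1.15 ± 0.34 and 1.17 ± 0.49 (edgeR adjusted p = 0.647 for both), and that of SPL10 was 0.16 with an offset for gene length. SMZ was the third above, and TOE1, an AP2-like repressor of flowering, was at 88.1 and 76.7 CPM against 110 to 135. SPL3, SPL4 and SPL9 overlapped with Col-0 but were under its medians. SPL3 was at 11.7 and 5.23 CPM against a median of 22.4, SPL4 at 7.40 and 9.89 against 16.6, and SPL9 at 4.01 and 3.64 against 8.81.

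The 12 lower genes with the smallest p were not called by edgeR, where the smallest adjusted p was 0.105, and all 12 were called by DESeq2. CIPK20 (AT5G45820, chromosome 5, 18586980 to 18588543), a kinase that acts with calcium sensors, was at 10.99 and 10.9 CPM in sgs3-12. In Col-0 its lowest, median and highest levels were 65.2, 127 and 177 CPM. The lowest Col-0 library was about 6 times the mutant level, and the log2 fold change was −3.51 ± 0.48 (SE, n = 2 and 6, DESeq2 adjusted p = 1.01e-12, edgeR adjusted p = 0.105). ATMYBL2 (AT1G71030), a repressor of anthocyanin synthesis, was at 19.5 and 25.6 CPM against 101.8, 177 and 256.1 (−3.004 ± 0.50, edgeR adjusted p = 0.216). APY5, annotated as a probable apyrase, was at 1.87 and 3.41 CPM against 19.0, 22.6 and 62.9 (−3.65 ± 0.70, edgeR adjusted p = 0.44). None of the mutant values of these 3 genes came near the lowest Col-0 library.

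LBD38, a repressor of nitrogen-responsive genes, was at 7.05 and 4.74 CPM against 14.7 to 25.3 (−1.70 ± 0.34). AT1G70820, annotated as a putative phosphoglucomutase, was at 19.8 and 13.4 against 87.9 to 451 (−4.02 ± 0.80), and the methyltransferase gene AT1G21130 was at 18.8 and 16.1 against 53.3 to 292 (−3.38 ± 0.67). Library 2 of generation 3 was the lowest of the Col-0 libraries in both. The cytidine deaminase gene CDA6 had 0 counts in both sgs3-12 libraries and 0.582 to 12.6 CPM in Col-0, at least 83.3-fold lower in sgs3-12, taking 3 counts in both libraries together as the floor. The microRNA precursor MIR169K was at 0.117 and 0.0443 CPM against 0.654 to 2.55. AT1G49500, AT5G60680 and AT2G29670, which have no well-known role, had log2 fold changes from −2.995 to −2.36. MIR169K and the glutaredoxin GRXC11 were also below all unstressed Col-0 libraries in the 30 °C-grown plants, and the other 10 were not.

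**Figure D4:**
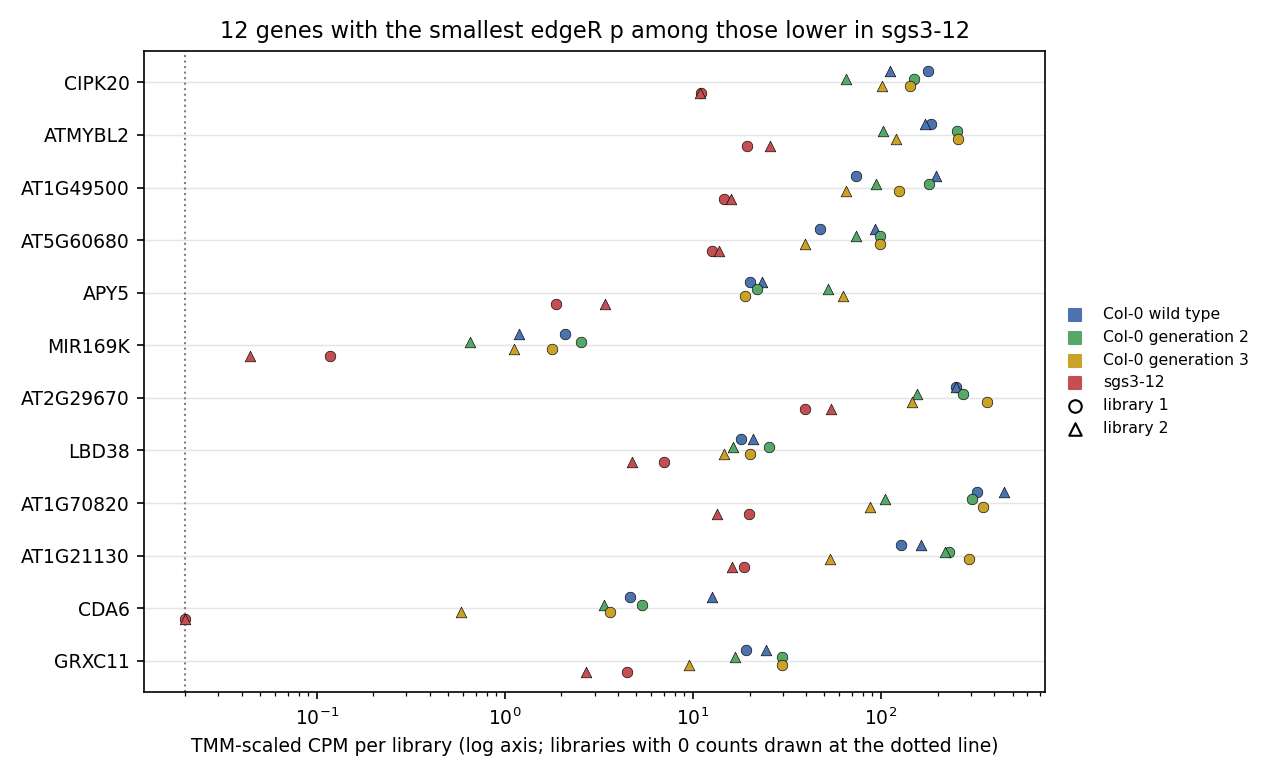
TMM-scaled CPM (log axis) in each library for the 12 genes with the smallest edgeR p among those with a mean of at least 1 CPM and both sgs3-12 libraries below all 6 Col-0 libraries. Colours are groups, shapes are library numbers, and the dotted line marks 0 counts. The red points lie to the left in every row, with CDA6 at 0 in both sgs3-12 libraries.

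Glutaredoxins, small redox proteins, were looked at as a family because GRXC11 was among these 12, a choice made after its values were seen. Of 29 tested, 8 (27.6%) lay below all Col-0 libraries and 0 above, all 8 were called lower by DESeq2, and the median was −0.64. GRXC11 (AT3G62950) was at 4.44 and 2.71 CPM against 9.56, 21.8 and 29.9 (−2.59 ± 0.53, edgeR adjusted p = 0.466). Of the 8, 5 stand in a row on chromosome 4 between 8925806 and 8937892: GRXS8, GRXS7, GRXS4, GRXS5 and GRXS3, known as nitrate-responsive genes. GRXS8 was at 1.01 and 1.197 CPM against 2.55, 11.2 and 20.03. Log2 fold changes of the 5 ran from −4.07 to −2.75 (edgeR adjusted p = 0.647 for each). Wild-type library 2 was the lowest Col-0 library for all 5, so the margin to Col-0 rested on it. These 5 are close copies, and shared reads could have been split among them.

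Photosynthesis genes lay low as a group. Of 15 tested, 10 (66.7%) were below all Col-0 libraries and 0 above, the median was −1.01, and edgeR called 0 at an adjusted p under 0.05, with 8 lower at an unadjusted p under 0.05 and DESeq2 calling 0. LHCB1.2, an antenna protein of photosystem II, was at 2946 and 1589 CPM against 3558, 9596 and 13830 (−1.96 ± 0.61, edgeR adjusted p = 0.647). LHCB1.1, of the same family, overlapped with Col-0, at 4884 and 3431 against 3878 to 12210. The treatment of reads that match several members is unknown, so values of single LHCB1 genes are uncertain. PSBQ2, of the oxygen-evolving complex, was at 1393 and 1115 CPM against 1850 to 5805 (−1.57 ± 0.51). The summed level of the 15 genes was 56310 and 44500 CPM in sgs3-12, 70900 and 83280 in library 2 of generations 2 and 3, and 103600 to 158100 in the other 4. It thus varied more than 2-fold within the pool, and fewer cells of a type and less RNA per cell cannot be told apart in such bulk samples. The 5 mesophyll markers, which share LHCB1.3 and PSBO1 with that list, summed to 47950 and 40770 CPM against 54520 to 89840. LHCB1.3 and PSBO1 were the 2 of the 5 below the range, while RBCS1A, RCA and CA1 overlapped with Col-0, RCA at 13000 and 12820 CPM against a median of 8886. The 6 guard cell markers summed to 120.5 and 91.6 CPM against 47.3 to 87.6. Of these 6, only FAMA (16.7%) lay above all Col-0 libraries and 0 lay below, so the others overlapped with Col-0. The part of cell make-up in these differences was not tested.

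Clock genes differed between libraries of the same group. LHY, a morning transcription factor, was at 476 and 405 CPM in sgs3-12, 21.6 and 4.00 in wild type, 18.5 and 302.5 in generation 2, and 30.2 and 303 in generation 3. RVE8, a relative of LHY, was likewise above all Col-0 libraries, at 152 and 126 CPM against 2.32 to 78.6. FKF1, an evening light receptor, had 0 counts in sgs3-12 and 60.1 CPM in wild-type library 2 but at most 0.797 in the other 5. In LHY the mutant libraries and library 2 of generations 2 and 3 were high, and the other 4 were low. The time of harvest is not given, and the part of clock state in the photosynthesis, starch and cold values was not tested.

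Of 15 cold and abscisic acid genes, 6 (40%) lay below all Col-0 libraries and 0 above, and 9 overlapped. The median was −2.01, edgeR called 0 (5 lower and 0 higher at an unadjusted p under 0.05), and DESeq2 called 4 lower. COR78 was at 30.3 and 48.99 CPM, above its Col-0 median of 27.9 and under a Col-0 maximum of 734.5. The CBF genes, neighbouring regulators of cold tolerance on chromosome 4, led this list. CBF2 was at 0.195 and 0.0443 CPM against 1.02, 2.36 and 15.05 (−5.17 ± 1.47, DESeq2 adjusted p = 0.00197, edgeR adjusted p = 0.647). CBF3 had 1 count in sgs3-12 against 568 in Col-0, a level 226.7 times lower, with a 95% counting interval of 40.5 to 8970. COR15A, a target of the CBF proteins, was at 5.92 and 13.8 CPM against 22.1 to 114. Col-0 levels of CBF3 ran from 0.437 CPM in library 2 of generation 3 to 16.1 in wild-type library 2, so the pool itself was wide. Of 14 starch breakdown genes, 2 (14.3%) were outside the range, AMY3 and PHS2, both below. The list's median was −2.14, with 12 fold changes negative and 2 positive, and 5 genes were lower at an unadjusted edgeR p under 0.05. SEX4 was at 11.6 and 14.1 CPM against a Col-0 median of 59.98, and DPE1 at 5.46 and 5.45 against 54.3. Other members were not under most Col-0 libraries. GWD1 was at 73.5 and 79.9 CPM against a Col-0 median of 56.0 and a maximum of 1451, and BAM3 was at 597 and 709.8 against 170.7 and 1127.

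Defence and heat genes were uneven between the 2 mutant libraries. PR2 and PR5, markers of salicylic acid signalling, lay above all Col-0 libraries, PR2 at 207 and 465 CPM against 5.29, 43.4 and 153, and PR5 at 214 and 327 against 7.29, 48.8 and 152. These 2 of 16 (12.5%) were the members outside the range, and the median of the list was 0.01. Heat shock protein genes had a median of 2.07 over 12 tested, but 2 (16.7%) were above and 1 (8.33%) below. Library 2 of sgs3-12 held most of that difference: HSP17.4 was at 37.4 CPM there and at 1.71 in library 1, against 0.0443 to 7.35 in Col-0. HSP101 and CLPB4 were the pair above in both libraries, and HSP18.1 (AT5G59720) was below. Of the lists on heat shock factors, jasmonate and wounding, flavonoid synthesis and iron deficiency, no member tested lay outside the Col-0 range on either side.

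**Figure D5:**
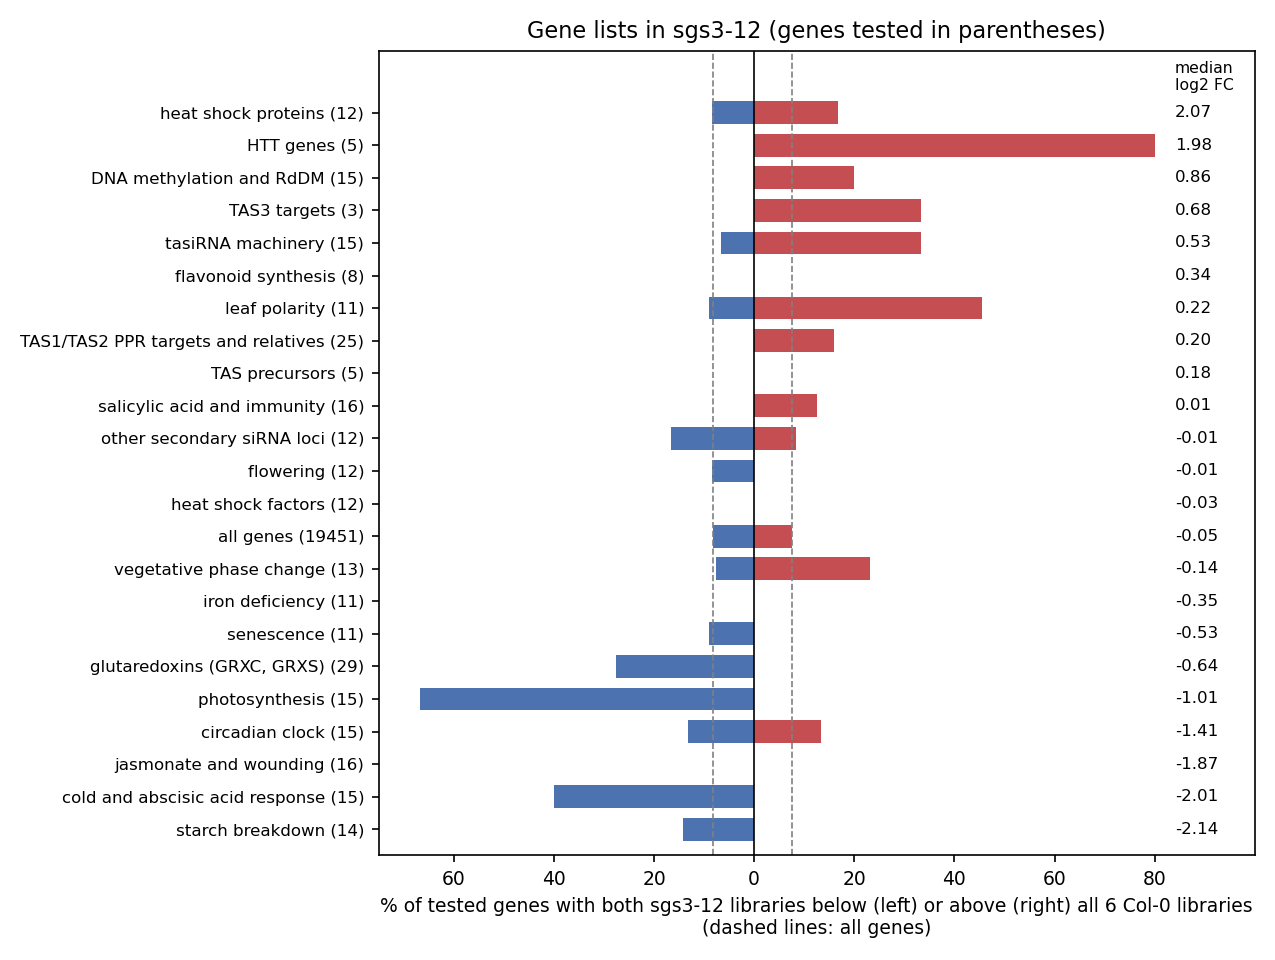
Share of tested genes with both sgs3-12 libraries above (red, right) or below (blue, left) all 6 Col-0 libraries, in percent, for each gene list with at least 3 genes tested other than the cell type markers, with the number tested in parentheses and the median log2 fold change at the right. Dashed lines give the shares over all genes, 7.54% above and 8.3% below, and HTT genes (80%) and photosynthesis genes (66.7%) reach farthest past them among the lists drawn. The glutaredoxin class was chosen after values were seen. In the HTT list, HTT1 and HTT4 could pass the filter on low counts through the sgs3-12 libraries alone.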

How the data were processed

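The submitters' processing notes name HISAT2 2.0.4, StringTie 1.3.0 and the TAIR10 build. The deposited table holds raw counts per gene, per the file headers, and deposited FPKM values, used only as an alternative. Which program counted reads, and whether by strand, is not stated. Counts were tested with edgeR 4.0.16 in R 4.3.3 (quasi-likelihood F-test, TMM, filterByExpr, which 2 libraries of either genotype could satisfy, Benjamini-Hochberg over 19451 genes, called under 0.05), with 2 levels, sgs3-12 and Col-0. Alternatives were DESeq2 1.42.0, limma 3.58.1 on log2(FPKM + 1), other scaling, filters and designs, an offset for gene length, and libraries left out. Named genes are the 12 per direction with the smallest p, a mean of at least 1 CPM and both mutant libraries outside the Col-0 range, all members of the machinery, TAS and target lists, and up to 3 members with the smallest p among those outside the range in each other list. Others named were chosen after their values were seen, as were the transposable element and glutaredoxin classes and the groups of neighbours. The members and lists were chosen with earlier results of these data known. Sequences came from RefSeq TAIR10.1, on which 32834 of the 32835 shared genes overlap their position in the table. The edgeR fit was also run on simulated data. Its pass mark used large changes at a low set dispersion and not the dispersion of these data, so it is no measure of power here. Each SE is the absolute log2 fold change divided by the square root of the F value of the edgeR test, and not a separately fitted standard error. Intervals cover counting error only.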

Additional observations from a re-analysis of the deposited data

Results flagged for a closer look

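AT5G27845, the transposable element gene called higher in sgs3-12, drew attention in the pool because 1 of its 6 libraries stood apart from the rest: library 2 of generation 2, at 0.0503 CPM, which is a single count, while the other 5 had 0. Such a check marks about 1 in 20 groups of continuous values by chance, but that rate does not hold here. With the other 5 libraries at 0, it marks any level above 0, so the mark rests on that 1 count and says nothing more. The same gene also stood out in the 30 °C-grown libraries, which are outside the comparison: their mean was 0.186 CPM, above all unstressed Col-0 libraries and far under the mutant levels.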

How the results depend on the processing

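All 24 genes named for their small p kept their direction in every fit that tested them. Limma on FPKM tested 10 of the 12 higher ones. The 24 were picked with both mutant libraries outside the Col-0 range, so a kept direction was close to fixed in advance. The calls were fragile. Against 4 genes called higher and 0 lower, the counts were 38 and 195 with DESeq2, 9 and 1 with limma, 0 higher with the 3 Col-0 groups as levels, 2 with all 10 libraries, 8 with an offset for gene length, 1 without both wild-type libraries, and 0 without both libraries of generation 2, without both of generation 3, or without library 1 of generations 2 and 3 together. Leaving out 1 library at a time gave 0 to 3 higher and 0 to 1 lower. Genes above and below the whole Col-0 range (1466 and 1614) numbered 2667 and 627 on FPKM, where the median of all genes was 0.21, 3198 and 2560 without wild type, and 2867 below without generation 2. Leaving out 1 library gave 1414 to 2904 above and 1699 to 3200 below. Same-numbered libraries deviated together (r above 0.1) in 4 of the 6 pairs of groups, most in generations 2 and 3, with r from −0.13 to 0.43. As this was not so in every pair and the labels name no shared source, the number was not taken as a pairing. A fit with the replicate number as a block called 3 higher and 0 lower, losing AT3G30844. Some log2 fold changes near 0 changed sign. With 1 library left out at a time, MYB75 ran from −2.73 to 0.32, HTT5 from −0.76 to 2.56, AGO7 from −0.735 to 0.0639, RDR1 from −0.0228 to 0.562, TAS1B from −0.0426 to 0.383 and TAS3 from −0.415 to 0.16. TAS3 was −0.10 as reported, 0.25 with limma, 0.0101 with the 3 Col-0 groups as levels, 0.0102 with all 10 libraries, 0.11 without generation 2, 0.0035 without generation 3 and 0.0839 without library 1 of generations 2 and 3. AT5G43740 was 0.0224 with limma, HTT5 −0.0576 without wild type, and RDR1 −0.0062 without generation 3. Without library 1 of generations 2 and 3, AGO1 was −0.0164, RDR1 −0.0956, ARF2 −0.0243 and HTT5 −0.0485. With the length offset, AGO1 was −0.33, DCL2 −0.0099, RDR1 −0.28, SDE3 −0.14 and ARF2 −0.21. The cause of these changes was not tested. Depth limits genes near 0, such as HTT4, CBF3 and the transposable element genes.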
